A study of Homo sapiens with 18 samples.

Results

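The genes described here are 10 components of bone morphogenetic protein (BMP) signalling in BE(2)-m17, a human neuroblastoma cell line. They are the ligands BMP2, BMP4 and BMP7, the protease TLL1, the inhibitory SMAD proteins SMAD6 and SMAD7, and the inhibitors of DNA binding ID1, ID2, ID3 and ID4. Members were taken by gene symbol alone, 10 of the 57905 Ensembl gene IDs counted. No value threshold entered the rule, but the set was chosen with earlier results of these data known. Every one of the 10 had enough counts to be tested in each experiment. In RNA1, BMP2 passed the filter on low counts through its Puro libraries alone and TLL1 through its ABCC1 libraries alone, and in both the group that passed is the higher one.

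BMPs are secreted dimers that bring type I and type II receptor kinases together. The receptors phosphorylate SMAD1, SMAD5 and SMAD9, which enter the nucleus with SMAD4 and switch on target genes, the ID genes among the best known. SMAD6 and SMAD7 are induced by the pathway and block it from within, whereas chordin and gremlin bind BMPs outside the cell and tolloid proteases such as TLL1 cut chordin and free the ligand. ID proteins lack a DNA-binding region and hold E proteins away from the bHLH factors that drive neuronal and sympathoadrenal differentiation, the lineage from which neuroblastoma arises.

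All cells carried the transposable vector pSBbi-Hyg-APP, so that human APP was overexpressed in both lines. The control line, labelled Puro, also carried the empty vector pSBbi-Pur, and the ABCC1(WT) line carried pSBbi-Pur-ABCC1 with codon-optimized human ABCC1, a membrane exporter. The lines were made by selecting transfected cells with antibiotics. RNA was prepared from wells plated with 14000000 cells and lysed on day 4, with 3 Puro and 3 ABCC1 libraries in each of 3 experiments numbered RNA1, RNA2 and RNA3. The libraries of a group came from wells of the same line, so p-values measure the spread between wells, which per the study's methods were plated week by week, and an effect of ABCC1 cannot be told apart from another difference between the selected lines of an experiment. The study repeated its first experiment with cryopreserved and with newly transfected cells, and the labels do not say which is RNA2 and which RNA3. RNA1 also differed from the others in library kit and instrument.

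The counts assigned to features were 27433393 to 57937653 per library in RNA1, 19577853 to 30996228 in RNA2 and 8866994 to 13332413 in RNA3. Exogenous ABCC1 had 0 to 15 counts in the Puro libraries and 51035 to 594404 in the ABCC1 libraries, so the exogenous transcript separated the lines as labelled. All 10 adrenergic neuroblastoma genes used to check the line, TH and DBH among them, had counts in every group. In RNA2 and RNA3 background alone could give such counts. Summed per kilobase, these genes stood at 450 and 1020 times the background described below in Puro and ABCC1 cells of RNA2. In RNA3 they stood at 201 and 263 times. Beyond counting error, a gene typically varied between replicates by 5.67% in RNA1, 35.3% in RNA2 and 19.7% in RNA3, so small differences could be seen only in RNA1. Within RNA1, ABCC1 replicate 3 stood apart from ABCC1 replicates 1 and 2 (chi-square per degree of freedom 24.1 and 17.96, beside 1.53 between those replicates) and held 57 spike-in counts against 6 and 7. The background was read from 373 olfactory receptor genes, assumed to be silent here. It came to 0.00485 and 0.00402 CPM per kilobase of exon in Puro and ABCC1 cells of RNA1, 0.576 and 0.302 in RNA2, and 1.58 and 1.24 in RNA3. In each experiment every ABCC1 library had a lower background than every Puro library, so background and line can hardly be separated. CPM are counts scaled to a common library total with TMM factors.

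ABCC1 cells of RNA1 had lower mRNA levels of all 3 BMP ligands and of ID1, ID2 and ID3 than Puro cells, and a higher level of TLL1. The falls ranged from 30.9% for ID3 to 75.4% for BMP2. The BMP2 value rests on 55 counts in Puro and 19 in ABCC1 cells. The call of ID3 was lost in 4 of the 7 alternative fits and without any 1 of 5 libraries, and that of BMP2 in 1 alternative fit, while those of BMP4, BMP7, ID1 and ID2 held in all of these. SMAD6, SMAD7 and ID4 did not pass the test there. In RNA2 no member passed, and in RNA3 BMP7 alone did, again lower in ABCC1 cells. BMP7 was thus the only member that passed in more than 1 experiment.

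The comparison asked whether BMP pathway transcripts differ between ABCC1-overexpressing and control cells, within each experiment. A gene was called where the quasi-likelihood test of edgeR gave an adjusted p of 0.05 or less (Benjamini-Hochberg, over every gene tested), and log2FC is the log2 fold change, ABCC1 minus Puro. In RNA1, 7 of the 10 members were called, where 37.6% of the 16995 genes tested were called. Of these, 6 were lower, against 19.7% of all genes, and 1 was higher, against 17.9%. BMP2 and TLL1, tested through their higher group alone, are 2 of the 7, and of the other 8 members 5 were called. Without ABCC1 replicate 3, 7 members were again called in RNA1, and the log2FC was −0.82 for ID1, −0.82 for ID2 and −0.81 for ID3. In RNA2, 0 of 10 were called by edgeR, against 1.7% of 34091 genes (1.25% higher and 0.458% lower), with BMP7 alone below an unadjusted p of 0.05. DESeq2 called none there, while BMP7 was called in RNA2 where every library had to hold 10 counts and where the spread was shared by all 18 libraries. In RNA3, 1 of 10 was called, against 2.8% of 36509 genes (2.03% higher and 0.767% lower). The median log2FC of the members was −0.62 in RNA1, −0.32 in RNA2 and 0.10 in RNA3, beside medians of 0.01, −0.19 and −0.09 over all genes tested. The Puro and ABCC1 libraries did not overlap in CPM for 7 members in RNA1, 1 in RNA2 and 2 in RNA3, against 50.4%, 29.8% and 19.5% of all genes. These are the 7 members called in RNA1, BMP7 in RNA2, and BMP7 and SMAD7 in RNA3, and in each of them the exact two-sided permutation p was 0.1, its lowest possible value with 3 libraries a group.

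**Figure D1:**
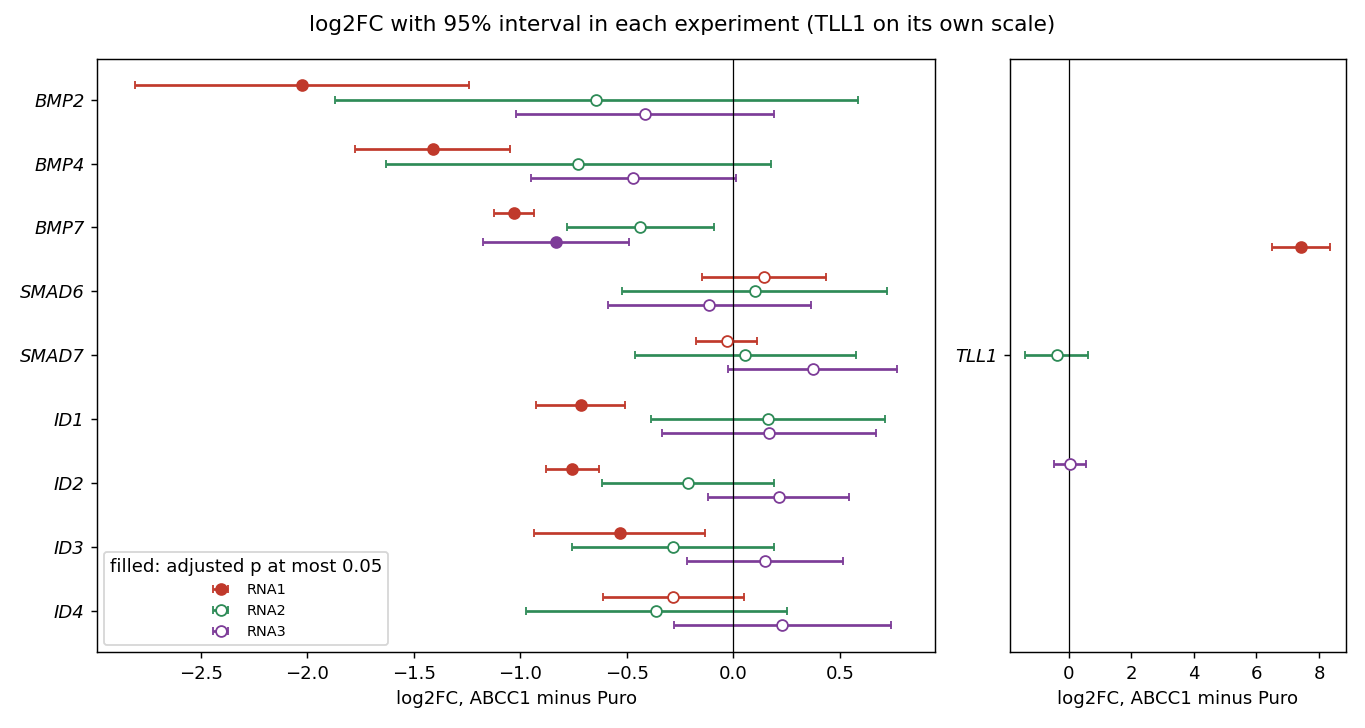
log2FC (ABCC1 minus Puro, horizontal axis) of each member in RNA1, RNA2 and RNA3, with 95% intervals and 3 libraries per line; filled points have an adjusted p of at most 0.05, and TLL1 has its own axis. The 6 called falls of RNA1 lie between −0.53 and −2.02, and BMP7 at −0.83 is the filled point of RNA3.

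BMP7 was the most abundant of the ligands. It encodes a secreted BMP best known from kidney, eye and sympathetic neuron development, and lies on the minus strand at chr20:55743804-55841685 (GRCh37), with 5418 bp of exon. In RNA1 its level was 176, 174 and 166 CPM in Puro replicates 1, 2 and 3 and 82.3, 83.2 and 87.4 CPM in the ABCC1 replicates. The groups were far apart, and ABCC1 cells held 51.0% less BMP7 mRNA (log2FC −1.03 ± 0.04 SE, adjusted p = 5.16e-08). In RNA2 the Puro libraries had 41.9, 61.0 and 50.6 CPM and the ABCC1 libraries 40.9, 39.3 and 33.3 CPM. Every ABCC1 library again lay below every Puro library, but Puro replicate 1 was within 1 CPM of ABCC1 replicate 1, and the difference did not pass (log2FC −0.44 ± 0.17 SE, adjusted p = 0.143). It passed with at least 10 counts required in every library (adjusted p = 0.0372) and with the spread shared by all libraries (adjusted p = 0.0230), and over all alternatives the adjusted p ran from 0.0230 to 0.628. In RNA3 the Puro libraries had 78.1, 119 and 92.4 CPM and the ABCC1 libraries 51.4, 51.9 and 58.9 CPM. The groups did not overlap and the level was 43.9% lower in ABCC1 cells (log2FC −0.83 ± 0.17 SE, adjusted p = 0.000977). BMP7 was called in RNA3 with each library left out in turn (adjusted p 0.000756 to 0.0448). Among all genes, 25.7%, 16.4% and 10.9% had ABCC1 libraries wholly below the Puro libraries in RNA1, RNA2 and RNA3. The antisense gene BMP7-AS1 shares no exon bases with BMP7 and averaged at most 22.3 counts in any group.

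BMP4, a BMP that directs sympathetic neuron fate from the neural crest, was less abundant. It is on the minus strand at chr14:54416454-54425479 (GRCh37), with 3082 bp of exon. Its Puro libraries in RNA1 had 3.75, 3.05 and 3.68 CPM and its ABCC1 libraries 1.38, 1.64 and 1.05 CPM. The groups were separate, with a level 62.4% lower in ABCC1 cells (log2FC −1.41 ± 0.17 SE, adjusted p = 8.54e-05). In RNA2 the values were 3.89, 4.25 and 3.37 CPM in Puro cells and 0.879, 2.34 and 3.71 CPM in ABCC1 cells. ABCC1 replicate 3 fell among the Puro libraries while replicate 1 was the lowest of the 6, and the difference of −0.73 did not pass (adjusted p = 0.336). With the background covariate the log2FC was 0.33. In RNA3 the Puro libraries had 8.74, 8.89 and 10.4 CPM and the ABCC1 libraries 8.97, 5.15 and 6.11 CPM. ABCC1 replicate 1 overlapped the Puro libraries, and the log2FC of −0.47 (95% interval −0.95 to 0.01) did not pass (adjusted p = 0.347). BMP4 stood at 2.16 and 2.48 times the background in Puro and ABCC1 cells of RNA2 and at 1.93 and 1.76 times in RNA3.

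BMP2, a close relative of BMP4, is on the plus strand at chr20:6748311-6760927 (GRCh37) and was the scarcest ligand. In RNA1 it had 25, 16 and 14 counts in Puro cells and 4, 6 and 9 in ABCC1 cells. In CPM these were 0.575, 0.588 and 0.444 against 0.0707, 0.186 and 0.155, with no overlap. The log2FC was −2.02 ± 0.36 SE (adjusted p = 0.00123), and the ratio of the summed counts, scaled for depth, was 0.241 with an exact 95% interval of 0.135 to 0.412, which covers counting error only. No ABCC1 library reached the 0.264 CPM that the filter required, so the gene was tested because of its Puro libraries. The call was lost with the background as a covariate (adjusted p = 0.0620), where the log2FC was −2.13. In RNA2 and RNA3 the level of BMP2 was near the background, at 0.537 and 0.340 CPM per kilobase in Puro and ABCC1 cells of RNA2 and 1.48 and 1.11 in RNA3. It exceeded the background of its own library in 1 of 3 libraries in each of these 4 groups. The log2FC values of −0.64 (adjusted p = 0.543) and −0.41 (adjusted p = 0.562) did not pass and rest on counts that cannot be separated from background.

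**Figure D2:**
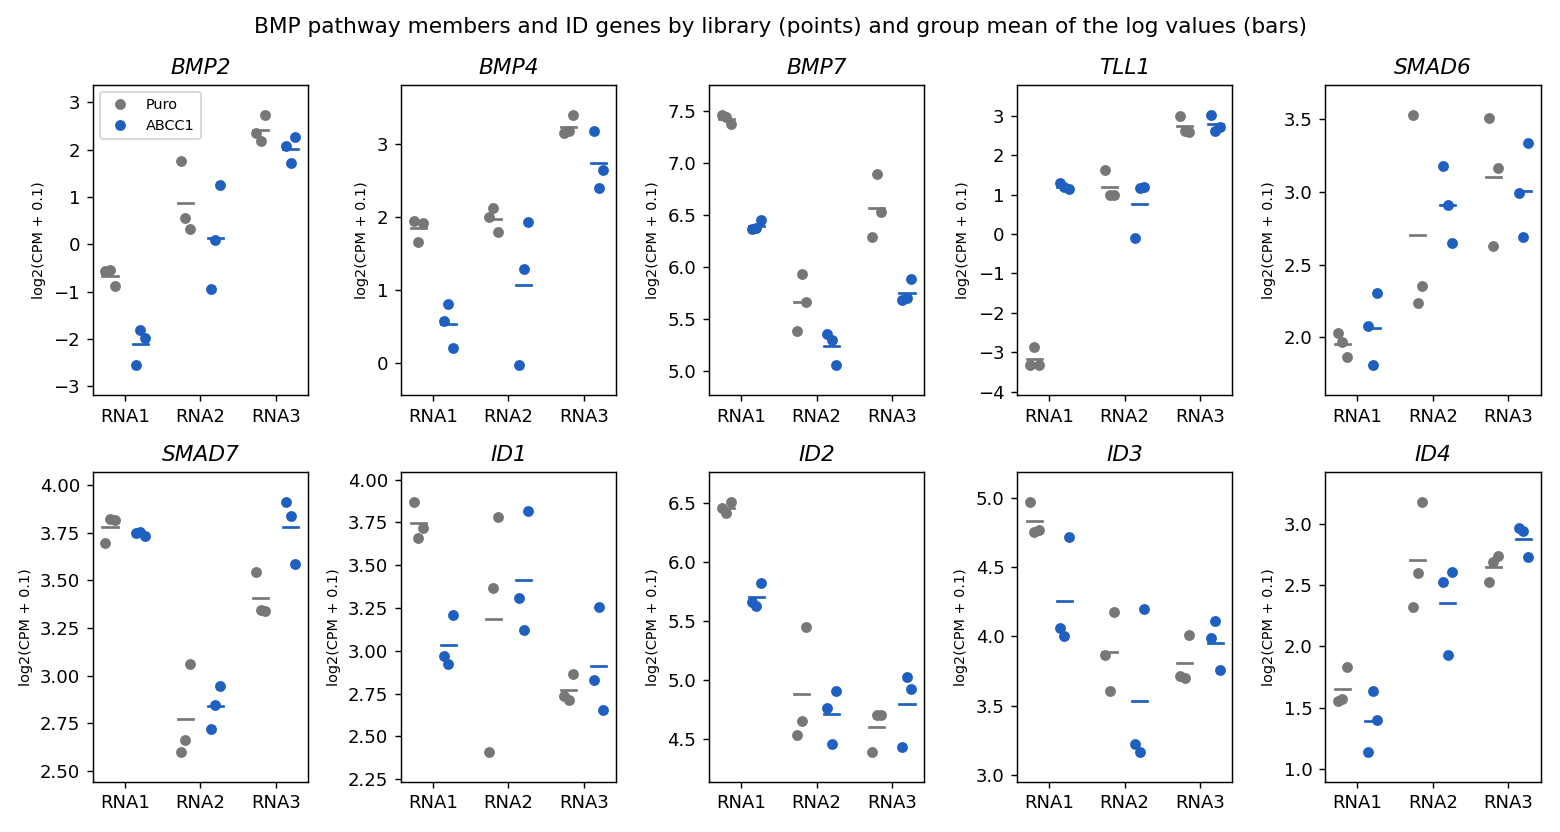
log2(CPM + 0.1) of the 10 members (vertical axes, each with its own range) in Puro (grey) and ABCC1 (blue) libraries of RNA1, RNA2 and RNA3; points are libraries and bars are means of the log values, 3 libraries per group. The ABCC1 points of BMP7 lie below the Puro points in every experiment, and those of ID2 do so in RNA1 only.

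TLL1 encodes a tolloid-like metalloprotease that cuts chordin. It lies on the plus strand at chr4:166794410-167025047 (GRCh37), with 7522 bp of exon. In RNA1 it had 0, 1 and 0 counts in Puro cells and 132, 70 and 122 in ABCC1 cells. The level in ABCC1 cells was even between the wells, at 2.33, 2.17 and 2.10 CPM. The ratio of the summed counts, scaled for depth, was 226 with an exact 95% interval of 40.2 to 8941, wide because the Puro libraries held a single count, and the test passed (adjusted p = 4.67e-07). In RNA2 the counts were 67, 56 and 39 in Puro cells and 22, 47 and 68 in ABCC1 cells, with a log2FC of −0.37 (adjusted p = 0.678). In RNA3 they were 87, 66 and 57 against 94, 70 and 79, with a log2FC of 0.05 (adjusted p = 0.954). Per kilobase these repeat experiments gave 0.298 and 0.230 CPM in Puro and ABCC1 cells of RNA2 and 0.880 and 0.911 in RNA3, below the background of the same library in all 12 libraries. TLL1 was therefore above background in 1 group, the ABCC1 cells of RNA1, where its 0.293 CPM per kilobase was 72.8 times the background.

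SMAD6 and SMAD7 did not pass the test in any experiment. SMAD6, which acts mainly on the BMP branch, lies at chr15:66994566-67074338 (GRCh37). It ranged from 3.55 to 3.98 CPM in Puro cells and 3.41 to 4.84 CPM in ABCC1 cells of RNA1, with a log2FC of 0.14 (95% interval −0.15 to 0.43, adjusted p = 0.425). The intervals of its log2FC were −0.52 to 0.72 in RNA2 and −0.59 to 0.36 in RNA3. In RNA3 SMAD6 was at 1.52 and 1.78 times the background in Puro and ABCC1 cells. SMAD7, which acts on both the BMP and the TGF-beta branch, lies at chr18:46446223-46477081 (GRCh37). It had 12.9, 14.03 and 13.99 CPM in the Puro libraries of RNA1 and 13.3, 13.4 and 13.2 CPM in the ABCC1 libraries. The 3 ABCC1 values lay within the Puro range, and the log2FC of −0.03 had an interval of −0.18 to 0.11 (adjusted p = 0.745), the narrowest of the members that did not pass. In RNA3 SMAD7 had 11.6, 10.1 and 10.0 CPM in Puro cells and 15.0, 14.2 and 11.9 CPM in ABCC1 cells. The groups did not overlap, as for 8.59% of all genes in that direction, but the log2FC of 0.37 (interval −0.02 to 0.77) did not pass (adjusted p = 0.375). SMAD7 stood at 1.81 and 2.99 times the background in Puro and ABCC1 cells there.

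The ID genes are short, and their products act in the nucleus. On GRCh37 they lie at chr20:30193086-30194318 (ID1, plus strand), chr2:8818975-8824583 (ID2, plus strand), chr1:23884409-23886285 (ID3, minus strand) and chr6:19837617-19840915 (ID4, plus strand). Since ID1, ID2 and ID3 were all lower in ABCC1 cells of RNA1, the 250 bases before the start of each ID gene are shown, 5′ to 3′ along the gene's strand, from RefSeq on GRCh38.p14. The windows are chr20:31605039-31605288, chr2:8681806-8682055, chr1:23559502-23559751 and chr6:19837120-19837369 in the order ID1 to ID4. Capitals mark CCAAT boxes, the letters CCAAT or their complement ATTGG, and TATA-like letters, TATAA or their complement TTATA.
ID1: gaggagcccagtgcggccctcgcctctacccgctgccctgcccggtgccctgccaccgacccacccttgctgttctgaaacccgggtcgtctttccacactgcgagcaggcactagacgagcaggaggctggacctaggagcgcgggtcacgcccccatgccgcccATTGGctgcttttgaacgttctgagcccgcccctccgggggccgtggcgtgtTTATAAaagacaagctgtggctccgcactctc
ID2: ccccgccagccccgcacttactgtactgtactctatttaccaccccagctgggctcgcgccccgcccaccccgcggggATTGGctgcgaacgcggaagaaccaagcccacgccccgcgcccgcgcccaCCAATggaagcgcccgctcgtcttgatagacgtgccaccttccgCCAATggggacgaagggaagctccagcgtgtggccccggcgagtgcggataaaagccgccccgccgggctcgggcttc
ID3: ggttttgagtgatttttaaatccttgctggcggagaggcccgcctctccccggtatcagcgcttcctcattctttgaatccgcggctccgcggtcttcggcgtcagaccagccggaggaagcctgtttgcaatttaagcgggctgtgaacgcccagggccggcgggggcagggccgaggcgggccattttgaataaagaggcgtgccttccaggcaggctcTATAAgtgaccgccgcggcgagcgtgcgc
ID4: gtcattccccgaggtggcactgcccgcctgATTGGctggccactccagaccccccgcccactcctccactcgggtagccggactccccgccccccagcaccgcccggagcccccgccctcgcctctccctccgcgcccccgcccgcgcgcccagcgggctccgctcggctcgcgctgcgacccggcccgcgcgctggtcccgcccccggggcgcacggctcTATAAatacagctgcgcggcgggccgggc
CCAAT was found on either strand in ID1, ID2 and ID4, with 3 matches in ID2, and in 32.01% of 35116 promoters of this length. TATAA was found in ID1, ID3 and ID4, in ID1 as 2 overlapping matches within the same capitals, and in 18.9% of all promoters. GGCGCC, a GC-rich sequence bound by BMP-activated SMADs, was found in none of these 4 windows, and among the 8 members with an entry it was found in BMP4 only, compared with 16.4% of all promoters. CAGAC, the SMAD box, was present in the windows of ID3 and ID4 and in 38.0% of all promoters. The windows of ID1, ID2 and ID4 are at least 65% G and C and that of ID3 is 62.0%. Among the 11387 promoters of at least 65%, CCAAT was found in 24.5%, TATAA in 3.77%, GGCGCC in 37.0% and CAGAC in 33.4%. Such matches describe these letters in this window and are not binding sites. BMP2 and BMP7 had no entry.

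ID2, abundant in neural crest derivatives, was the most highly expressed ID gene in every group. In RNA1 it had 87.8, 85.4 and 91.4 CPM in the Puro libraries and 50.6, 49.3 and 56.5 CPM in the ABCC1 libraries. The groups did not overlap and ABCC1 cells held 40.8% less (log2FC −0.76 ± 0.06 SE, adjusted p = 3.56e-06). In RNA2 the Puro libraries had 23.1, 25.1 and 43.7 CPM and the ABCC1 libraries 27.1, 21.9 and 30.0 CPM. Puro replicate 3 was the highest library, the groups overlapped, and the log2FC was −0.21 (interval −0.62 to 0.19, adjusted p = 0.543). In RNA3 the values were 20.9, 25.9 and 26.0 CPM in Puro cells and 21.5, 32.6 and 30.3 CPM in ABCC1 cells, with a log2FC of 0.21 (interval −0.12 to 0.55, adjusted p = 0.591). ID2-AS1, which is transcribed from the other strand, shares 38 bp of exon with ID2 and averaged 49.3 to 70.3 counts per group, and reads in the shared stretch cannot be told apart without strand.

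ID1, a direct target by which BMP activity is often read, had 14.5, 12.5 and 13.04 CPM in the Puro libraries of RNA1 and 7.73, 7.47 and 9.14 CPM in the ABCC1 libraries. The groups were apart, with a level 39.2% lower in ABCC1 cells (log2FC −0.72 ± 0.09 SE, adjusted p = 0.000193). In RNA2 it had 5.22, 10.2 and 13.6 CPM in Puro cells and 9.82, 8.61 and 13.97 CPM in ABCC1 cells. Puro replicate 1 was the lowest of the 6 libraries, and the log2FC was 0.16 (interval −0.39 to 0.71, adjusted p = 0.747). In RNA3 the values were 6.55, 6.44 and 7.19 CPM against 7.01, 9.45 and 6.19 CPM, with 1 ABCC1 library within the Puro range, 1 above it and 1 below it, and a log2FC of 0.17 (interval −0.33 to 0.67, adjusted p = 0.815).

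ID3, which is often regulated together with ID1, had 31.3, 26.8 and 27.2 CPM in the Puro libraries of RNA1 and 16.6, 15.9 and 26.2 CPM in the ABCC1 libraries. ABCC1 replicate 3 was close to the Puro libraries and the other two well below them. The level was 30.9% lower (log2FC −0.53 ± 0.18 SE, adjusted p = 0.0425). This call was lost without any 1 of the other 5 libraries (adjusted p 0.0641 to 0.117), in DESeq2 (adjusted p = 0.121), without the filter on low counts (adjusted p = 0.328), with the background covariate (adjusted p = 0.233) and with the shared spread (adjusted p = 0.103). The log2FC was −0.54 in DESeq2, −0.51 without the filter, −0.65 with the covariate and −0.55 with the shared spread. Without ABCC1 replicate 3 the log2FC was −0.81 and the call stood. In RNA2 the Puro libraries had 14.5, 12.1 and 18.01 CPM and the ABCC1 libraries 9.24, 8.89 and 18.3 CPM. ABCC1 replicate 3 was again above its other two replicates, and the log2FC was −0.28 (interval −0.76 to 0.19, adjusted p = 0.480). In RNA3 the values were 13.01, 12.9 and 16.1 CPM against 15.8, 17.2 and 13.5 CPM, with overlap and a log2FC of 0.15 (interval −0.22 to 0.52, adjusted p = 0.765).

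ID4, which is linked to neural progenitors, was the least abundant ID gene. It had 2.83 to 3.46 CPM in Puro cells and 2.10 to 3.01 CPM in ABCC1 cells of RNA1, with overlap and a log2FC of −0.28 (interval −0.61 to 0.05, adjusted p = 0.168). The log2FC was −0.36 in RNA2 (interval −0.98 to 0.25, adjusted p = 0.488) and 0.23 in RNA3 (interval −0.28 to 0.74, adjusted p = 0.730). ID4 was at 1.68 and 2.50 times the background in Puro and ABCC1 cells of RNA3. All 4 ID genes thus had negative log2FC values in RNA1 and positive ones in RNA3, of which the values of ID1, ID2 and ID3 in RNA1 passed the test. The sign in RNA3 turned for ID2 with the background covariate (−0.19) and for ID1 without ABCC1 replicate 2 (−0.021).

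A call in one experiment and none in another does not show that the effects differ, so the difference was tested in a joint fit of the 18 libraries. The interaction of experiment and line was called for TLL1 alone among the members (adjusted p = 1.02e-10), against 1.19% of 46225 genes. The TLL1 difference in log2FC was −7.77 between RNA2 and RNA1 and −7.29 between RNA3 and RNA1, values that depend on how the single Puro count of RNA1 is treated. For ID2 the log2FC was 0.45 higher in RNA2 and 0.95 higher in RNA3 than in RNA1, which did not pass over all genes (adjusted p = 0.148) but did without Puro replicate 3 of RNA2 (adjusted p = 0.0249) and without ABCC1 replicate 1 of RNA3 (adjusted p = 0.02999). For ID1 the differences were 0.79 and 0.86 (adjusted p = 0.330), and for ID3 0.16 and 0.66 (adjusted p = 0.662). For BMP7 they were 0.51 and 0.17 (adjusted p = 0.673), for BMP4 0.57 and 0.89 (adjusted p = 0.714) and for BMP2 1.27 and 1.56 (adjusted p = 0.633). No member's log2FC was shown to differ between RNA2 and RNA3, where the lowest adjusted p was 0.655 and edgeR called 11 genes in all, 0.0238% of those tested. An experiment and its library kit cannot be told apart in the differences from RNA1.

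Levels of different genes were compared as CPM per kilobase of exon. In Puro cells of RNA1, ID2 stood highest at 40.0 ± 1.4 (SD, n = 3), followed by BMP7 at 31.7, ID3 at 15.8, ID1 at 10.8 and SMAD7 at 3.69, each with its 3 libraries apart from the next gene's. ID4 at 1.30, BMP4 at 1.13 and SMAD6 at 1.03 followed, and the libraries of neighbours among these 3 genes overlapped. BMP2 at 0.149 and TLL1 at 0.00163 came last. In ABCC1 cells of RNA1 the order began in the same way, with ID2 at 23.7, BMP7 at 15.6, ID3 at 10.9, ID1 at 6.58 and SMAD7 at 3.60, and TLL1 at 0.293 stood above BMP2 at 0.0381. ID2, BMP7, ID3 and ID1 were the 4 highest members in all 6 groups. In RNA3, BMP7 led in Puro cells at 17.8 ± 3.8 (SD, n = 3) with ID2 at 11.01, whereas in ABCC1 cells ID2 at 12.8 and BMP7 at 9.98 overlapped. The level of a gene differed between experiments along with kit and background, so levels were not tested across them.

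**Figure D3:**
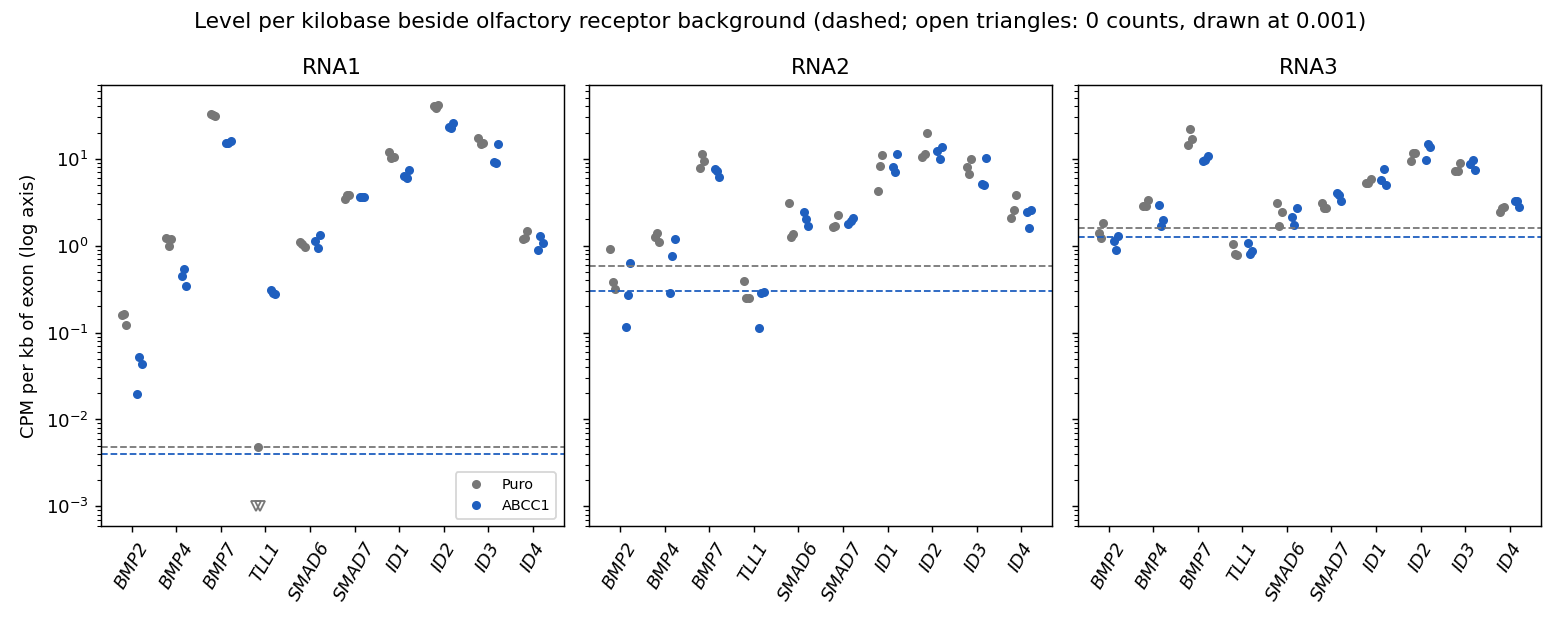
CPM per kilobase of exon (log axis) of each member in each library, Puro grey and ABCC1 blue, in RNA1, RNA2 and RNA3; dashed lines give the mean level of 373 olfactory receptor genes in each line, and open triangles stand for 0 counts. TLL1 lies below the dashed lines in RNA2 and RNA3 and BMP2 lies around them. The other members lie above the line of their group or, for BMP4 in RNA2 and SMAD6 in RNA3, close to it.

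Other genes of the pathway, together with bHLH partners of ID proteins, were read from lists of 62 genes. Of these, 61 had an ID in the files. In RNA1, 44 had enough counts to be tested. Among them, 8 were higher and 12 lower in ABCC1 cells, 45.5% in all, beside the 37.6% of all genes. The list of bHLH partners gave 6 of the 12 lower calls, from 8 genes tested (75.0%). In RNA2, 1 of 61 was called, 1.64% beside 1.7%, and in RNA3, 3 of 61, 4.92% beside 2.8%, all of them higher. The 20 calls of RNA1 became 9 with the background covariate and 8 with the shared spread, and the 1 of RNA2 became 0, 21 and, in DESeq2, 6. The 3 of RNA3 became 7 in DESeq2, 8 with the shared spread or where every library had to hold 10 counts, 10 under the replicate block, and 9 without Puro replicate 2 or without ABCC1 replicate 1. The receptors BMPR1A and BMPR2 and the transducers SMAD1, SMAD4 and SMAD5 had 1.88 to 15.4 CPM per kilobase over the groups. In RNA1 these levels were at least 556 times the background, whereas SMAD4 in RNA3 was at 1.45 and 1.80 times the background in Puro and ABCC1 cells. In RNA1, 3 of 10 receptors and co-receptors tested were called, with ENG (log2FC 0.71, adjusted p = 0.00996) and ACVR1 (0.21, adjusted p = 0.0124) higher and BMPR1B (−0.22, adjusted p = 0.0130) lower. None of these 3 was called elsewhere, and ENG had log2FC values of −0.10 in RNA2 (adjusted p = 0.856) and −0.56 in RNA3 (adjusted p = 0.197). Of the 4 SMAD transducers, SMAD1 was higher (0.21, adjusted p = 0.00472) and SMAD9 lower (−0.25, adjusted p = 0.000722). Among 2 other ligands tested, BMP8B was higher (0.26, adjusted p = 0.0218). In RNA3 the type II receptor ACVR2A rose from 16.1 ± 1.1 to 28.1 ± 3.7 CPM (SD, n = 3), the one receptor called there (log2FC 0.80, adjusted p = 0.00116), beside 0.14 (adjusted p = 0.0579) in RNA1 and 0.43 (adjusted p = 0.156) in RNA2.

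Of 7 extracellular antagonists and modulators tested in RNA1, 2 were called, 1 in each direction, 28.6% beside the 37.6% of all genes. GREM1, the BMP antagonist gremlin, was higher at 50, 26 and 39 counts in Puro cells and 139, 82 and 151 in ABCC1 cells (log2FC 1.17 ± 0.14 SE, adjusted p = 0.000106). CHRDL1, a chordin-like BMP antagonist, was lower at 17, 17 and 25 counts against 5, 0 and 4 (log2FC −3.19 ± 0.51 SE, adjusted p = 0.000700), and it passed the filter through its Puro libraries alone. Neither passed in RNA2 (adjusted p = 0.572 and 0.382) or RNA3 (adjusted p = 0.963 and 0.967), where CHRDL1 was below the background. GREM1 was at 1.48 and 3.62 times the background in Puro and ABCC1 cells of RNA2 and at 0.847 and 1.05 times in RNA3. Neither tolloid protease beside TLL1, BMP1 or TLL2, was called by edgeR in any experiment, with 1 unadjusted p below 0.05 among the 6 tests, in RNA2. Of the 6 intracellular regulators, BAMBI, a pseudoreceptor that damps the signal, was higher (0.25, adjusted p = 0.0251) and the repressor SKIL lower (−0.32, adjusted p = 0.000331) in RNA1.

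Among other target genes of BMP signalling, HEY1 was called in all 3 experiments, the one listed gene for which this held. HEY1 encodes a bHLH repressor induced by both BMP and Notch signals. Its Puro libraries had 1091, 663 and 764 counts in RNA1 and its ABCC1 libraries 3060, 1719 and 3213. The corresponding counts were 132, 218 and 139 against 347, 273 and 336 in RNA2, and 136, 161 and 122 against 333, 365 and 356 in RNA3. The mean level per experiment was 2.21-fold higher in RNA1 (adjusted p = 5.16e-08), 1.84-fold in RNA2 (adjusted p = 0.0374) and 2.24-fold in RNA3 (adjusted p = 6.89e-07), opposite in sign to the ID genes of RNA1. The call in RNA2 was the only one among the lists there, and no listed gene was called in RNA2 without any 1 of 5 libraries, whereas 3 were called without ABCC1 replicate 3. MSX2, a homeobox target, was higher in RNA1 (log2FC 0.34, adjusted p = 0.00242) and RNA3 (0.69, adjusted p = 0.0278), with 0.48 in RNA2 (adjusted p = 0.228). DLX5, another homeobox target, was lower in RNA1 (−1.17, adjusted p = 0.000158), with −0.64 in RNA2 (adjusted p = 0.410) and −0.90 in RNA3 (adjusted p = 0.0877). ATOH8 was also lower in RNA1 (−0.82, adjusted p = 0.000242), so that 2 of the 5 target genes tested beyond the ID family were called higher, beside 17.9% of all genes, and 2 lower, beside 19.7%.

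The bHLH proteins that ID proteins bind or that pair with the same E proteins were mostly lower in RNA1, with 6 of 8 tested called, all of them lower, against 19.7% of all genes. NEUROD1, a neuronal differentiation factor, had 96, 58 and 78 counts in Puro cells and 35, 16 and 28 in ABCC1 cells (log2FC −2.07 ± 0.17 SE, adjusted p = 7.04e-06). HAND1, TCF12, TWIST1 and TCF4 had log2FC values between −0.53 and −0.12, whereas TCF3 and HAND2 did not pass. In RNA2 and RNA3 edgeR called none of the 9, with 1 and 2 of them below an unadjusted p of 0.05.

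**Figure D4:**
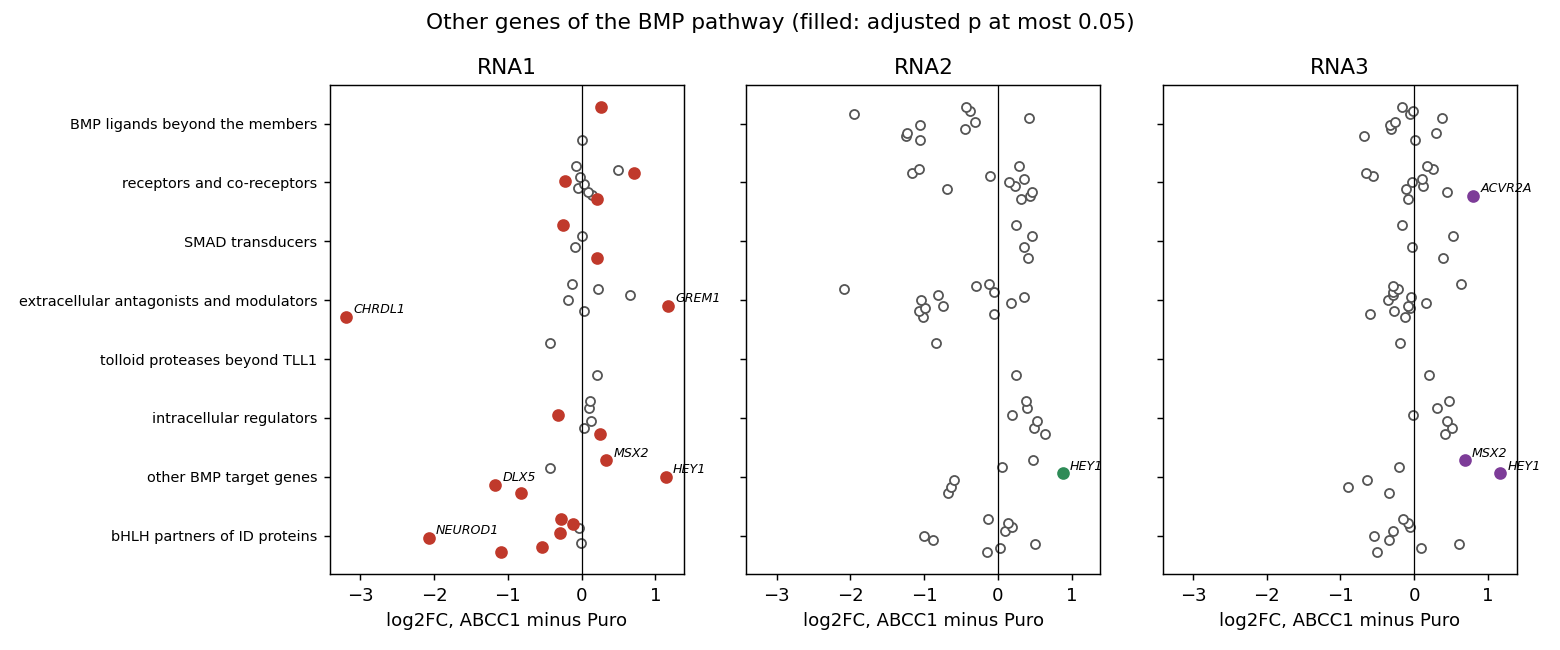
log2FC (ABCC1 minus Puro, horizontal axis) of the listed BMP pathway genes and bHLH partners of ID proteins by role in RNA1, RNA2 and RNA3. Each point is a gene, fitted from 3 libraries per line, filled where the adjusted p is at most 0.05. Names stand beside the called genes that the naming rule selects. HEY1 is filled to the right of 0 in each panel, and 6 of 8 bHLH partners are filled to the left of 0 in RNA1.

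Signs of other cell types were read from marker lists. Of 6 fibroblast markers, the summed level in RNA1 was 134 to 138 CPM in Puro cells and 206 to 209 CPM in ABCC1 cells. LUM, DCN and PDGFRB made up most of it. Among the collagens listed, COL1A2 had 1 count in the Puro and 0 in the ABCC1 libraries of RNA1. COL1A1 had 79 and 206 counts there, at 16.3 and 33.7 times the background. COL3A1 had 87 and 83 counts, at 26.0 and 22.4 times the background. In RNA2 the sums were 83.6 to 125 and 91.9 to 98.9 CPM, and in RNA3 125 to 141 and 108 to 120 CPM. The summed level of the adrenergic genes was also 13294 to 14325 CPM in Puro cells and 11222 to 12536 CPM in ABCC1 cells of RNA1. These sums moved with the line in RNA1, as did the falls of the BMP ligands and ID genes, and their part in those falls was not tested. The 4 Schwann cell markers summed to 2.82 to 3.42 CPM in Puro and 2.71 to 2.98 CPM in ABCC1 cells of RNA1, 46.8 and 52.7 times the background per kilobase, and to 1.15 to 2.11 times the background in RNA2 and RNA3. Both endothelial markers with an ID summed to 0.444 to 0.598 and 0.465 to 0.534 CPM in RNA1, nearly all of it VWF, with CDH5 at 0 in Puro cells, and stood at 2.05 to 7.70 times the background over the groups. The Schwann and endothelial sums of the lines overlapped in RNA1. The 3 leukocyte markers were between 0.704 and 1.08 times the background per kilobase in every group. In bulk RNA, fewer cells expressing a gene and less mRNA per cell cannot be told apart.

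The genes most like ID1 and ID3 in profile were sought among 46224 genes by the root mean square difference of log2(CPM + 0.1), centred on each experiment, over the 18 libraries. For ID1 these were ARRDC1-AS1 (0.220), HSPA4L (0.226) and RND3 (0.231), beside 0.365 for the spread of ID1 itself. For ID3 they were ARHGEF26-AS1 (0.193), TMC4 (0.204) and ABLIM3 (0.226), beside 0.335 for ID3. None of these 6 is another member or a listed pathway gene. ARHGEF26-AS1 and TMC4 averaged 1.80 and 3.23 CPM over the 18 libraries and had too few counts to be tested in RNA1. Their likeness to ID3 there rests on low counts. The libraries share depth and background within an experiment, and the measure is given as a description.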

How the data were processed

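RNA from 18 cultures was sequenced. The authors made FASTQ files with bcl2fastq 2.18, aligned reads with STAR 2.7.3a to GRCh37 and counted read pairs on Ensembl exons with featureCounts (Subread 2.0.0), and the deposited values are raw counts per gene. Per the file headers, the counting took pairs and used no strand setting. For RNA1 the labels name 2 library kits, so its strandedness is uncertain. Replicate pairs within a group differed by more than sampling noise (chi-square per degree of freedom 1.53 to 26.1), so each library counted once.

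Symbols were matched through a name table (51996 of 57905 IDs). The 92 spike-in rows were left out, and the 6 vector rows were fitted with the genes but not counted among them. Each experiment was fitted in R 4.3.3 with edgeR 4.0.16: filterByExpr at a minimum count of 10, TMM, robust quasi-likelihood test, two-sided, Benjamini-Hochberg over all genes tested. A joint fit of the 18 libraries gave the interaction of experiment and line. SE values are of the log2FC. Permutation tests added 0.1 CPM before the log. Fits were tested on simulated counts with known changes. Alternatives were RLE size factors, DESeq2 1.42.0, no low-count filter, at least 10 counts in every library, a replicate block, a spread shared by all libraries, the olfactory receptor background as a covariate, and each library left out. Levels were also computed from plain totals and after subtracting background.

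Members, lists and tests were chosen with earlier results of these data known. Named list genes were those called in at least 2 experiments, and in each experiment the 5 called with the largest absolute log2FC among genes with at least 10 counts in every library of a group, and the 3 profiles nearest to ID1 and to ID3. ATOH8 and the other list genes given with values were added after their values were seen. The CCAAT and TATAA letters were chosen after the sequences were seen. Promoter sequences are RefSeq's on GRCh38.p14, and no coordinate was moved between builds. Exact 95% intervals cover counting error only. Some items are not reported here. All columns of per-sample values were used.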

Additional observations from a re-analysis of the deposited data

Results flagged for a closer look

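The log2FC of TLL1 between ABCC1 and Puro cells differed between experiments by the interaction test of the joint edgeR fit (adjusted p = 1.02e-10). TLL1 had 324 counts in the ABCC1 libraries of RNA1 and 1 count in the Puro libraries, against 137 and 162 in RNA2 and 243 and 210 in RNA3, where its level per kilobase was below the background in all 12 libraries. TLL1 is removed when every library must hold 10 counts, so the test could not be made there. Its RNA1 value comes from a gene tested through the higher group alone, and experiment and library kit cannot be told apart. Groups of 3 libraries were too small for a test of single outlying values.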

How the results depend on the processing

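The log2FC of each member was recomputed under 7 alternatives per experiment. Outside leave-one-out fits, 193 of these values kept their direction and their side of the threshold, 5 lost a call, 2 gained one and 8 reversed, none of the reversed values being called in any fit. The calls lost were ID3 in RNA1 in DESeq2, without the filter, with the background covariate (adjusted p = 0.233) and with the shared spread (adjusted p = 0.103), and BMP2 in RNA1 with the covariate (adjusted p = 0.0620). BMP7 in RNA2 gained a call with at least 10 counts in every library (adjusted p = 0.0372) and with the shared spread (adjusted p = 0.0230), and its adjusted p over the alternatives ran from 0.0230 to 0.628. With at least 10 counts in every library, SMAD6 and SMAD7 in RNA2 came to −0.036 and −0.061 and the SMAD7 difference between RNA2 and RNA1 to −0.13. With the background covariate, BMP2, BMP4, TLL1 and ID3 in RNA2 came to 0.98, 0.33, 0.64 and 0.23, and SMAD6 and ID2 in RNA3 to 0.16 and −0.19. As every ABCC1 library had less background than every Puro library of its experiment, the fit with this covariate can hardly separate background from line. The cause was not tested.

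With 1 library left out, log2FC values that changed sign ran from −0.0027 to 0.22 (SMAD7), −0.11 to 0.49 (ID1), −0.12 to 0.67 (SMAD6) and −0.35 to 0.14 (ID2) in RNA2, and from −0.31 to 0.15 (SMAD6), −0.031 to 0.23 (TLL1) and −0.021 to 0.30 (ID1) in RNA3. The differences between RNA2 and RNA1 ran from −0.091 to 0.16 (SMAD7), −0.26 to 0.47 (ID3), −0.31 to 0.41 (SMAD6) and −0.36 to 0.11 (ID4). Members whose effect differed between experiments numbered 1 to 2, and 0 with at least 10 counts in every library, which leaves TLL1 out. Genes called ran from 4637 to 7827 in RNA1, from 8 (without Puro replicate 3) to 1359 (without ABCC1 replicate 3) in RNA2 and from 394 (without ABCC1 replicate 3) to 2762 (without Puro replicate 2) in RNA3. Listed pathway genes called ran from 17 to 28, from 0 to 3 and from 2 to 9. Members called ran from 6 to 7 in RNA1 and stayed at 0 in RNA2 and 1 in RNA3.

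Genes called in RNA1 were 1705 with the covariate and 1975 with the shared spread, with 9 and 8 listed pathway genes. In RNA2 they were 1086 with RLE size factors, 2849 in DESeq2, 1402 without the filter, 9 with the covariate and 5427 with the shared spread, with 6 pathway genes in DESeq2, 0 with the covariate and 21 with the shared spread, and members called rose to 1 with at least 10 counts in every library and with the shared spread. In RNA3 they were 1597 in DESeq2, 1725 with at least 10 counts in every library and 1566 with the shared spread, with 7, 8 and 8 pathway genes. After subtraction of background, the median level of the members, taken in each library and averaged over the group, was 2.01 and 1.94 CPM per kilobase in Puro and ABCC1 cells of RNA2 and 1.43 and 2.16 in RNA3, against 2.58, 2.24, 3.00 and 3.40 without it.

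The replicate numbers were not taken to pair the libraries. The study's methods describe weekly plating of the lines, so a number may stand for a week, but no label ties it to one, and deviations of same-numbered libraries had mean correlations of −0.13, −0.13 and 0.05 in RNA1, RNA2 and RNA3, with 0, 0 and 3 of 6 libraries closest to their own number. With the replicate block, genes called in RNA3 were 1885 and listed pathway genes 10. It changed no call of a member in any experiment. Depth limits RNA3 most, at 8866994 counts in its smallest library, and BMP2 and TLL1 in both repeat experiments are limited by background. BMP4 in both repeats and SMAD6, SMAD7 and ID4 in RNA3 were at 1.52 to 2.99 times the background. A sizeable part of their counts there may be background.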
